A study of Mus musculus with 3 samples.

Results

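The genes Cebpa, Cebpb and Cebpd encode C/EBPα, C/EBPβ and C/EBPδ, transcription factors of the CCAAT/enhancer-binding protein family. Open chromatin around them was compared between mouse fat cells of 3 depots. Members were the DNase I hypersensitive sites whose midpoint lay in a window of 250 kb for Cebpa (mm9 chr7:35800000-36050000) or of 200 kb for Cebpb (chr2:167450000-167650000) and Cebpd (chr16:15800000-16000000). They numbered 133 of the 172496 sites listed, with 41 of 48308 in BAT, 45 of 63214 in iWAT and 47 of 60974 in eWAT. Merging sites that overlap or touch gave 78 regions of 99297. The rule uses positions only, and no tag count.

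DNase-seq digests nuclei with DNase I and sequences the cut ends, so that exposed DNA collects many tags. The 3 groups were adipocytes grown from the stromal-vascular cells of brown fat (BAT, pooled from interscapular, cervical and axillary depots), of inguinal white fat (iWAT) and of epididymal white fat (eWAT) of male NMRI mice of 4 to 5 weeks. All cultures received newborn calf serum at 10%, 30 nM insulin, 1 µM rosiglitazone (an activator of PPARγ), sodium ascorbate, HEPES, glutamine, streptomycin and penicillin, and were collected on day 8. Only cultures above 50% differentiation were taken, so undifferentiated cells can be present, and digestion used 120 U/ml DNase I. Each depot has 1 library, so no difference between depots has a replicate check and none is tested. The precursors differentiated outside the animal under rosiglitazone in every group, including the white ones. In such bulk cultures, fewer cells with an open site and a less open site per cell cannot be told apart. The labelled cell type could not be checked against marker genes, because the lists hold positions and no gene names.

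C/EBP factors are basic leucine zipper proteins that bind DNA as dimers. In fat cell differentiation, C/EBPβ and C/EBPδ appear early and help to switch on Cebpa and Pparg, whose products then maintain each other and bind many of the same adipocyte enhancers. C/EBPα is needed for the insulin response of white fat cells, and C/EBPβ also acts with PRDM16 in the brown fat program.

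The 250 bases upstream of the gene start are shown for the 2 genes of 3 that the RefSeq promoter table (GRCm38.p6) holds. They are Cebpa at chr7:35119043-35119292 and Cebpb at chr2:167688665-167688914, both on the plus strand. Capitals mark TATAAA and TTGCG in Cebpa, and TGACG or its complement in Cebpb.
Cebpa: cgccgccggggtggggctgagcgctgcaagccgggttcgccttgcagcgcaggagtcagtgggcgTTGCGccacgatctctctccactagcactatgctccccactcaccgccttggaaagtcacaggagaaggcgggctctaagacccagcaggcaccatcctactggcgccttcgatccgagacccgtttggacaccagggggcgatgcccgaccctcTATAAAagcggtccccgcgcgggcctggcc
Cebpb: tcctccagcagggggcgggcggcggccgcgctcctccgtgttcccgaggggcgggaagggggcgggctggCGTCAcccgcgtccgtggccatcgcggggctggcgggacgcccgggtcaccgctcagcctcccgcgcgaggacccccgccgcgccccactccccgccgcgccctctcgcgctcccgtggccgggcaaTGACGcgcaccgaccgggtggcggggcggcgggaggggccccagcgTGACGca
The Cebpa stretch had 66.4% G and C, and the Cebpb stretch had 81.6%, against a median of 52.4% over 32851 promoters of the same length. Cebpa held a TATA box (TATAAA) from 30 to 25 bases upstream of the start, and 12.4% of all promoters held that motif on either strand. It also held TTGCG, the first letters of the C/EBP recognition sequence, from 185 to 181 bases upstream. This motif was searched only after the sequence had been seen, and 14.5% of all promoters held it. Cebpb held TGACG, the first letters of the cAMP response element through which CREB factors act, at 3 places, 1 of them on the minus strand. They lay from 180 to 176, from 53 to 49 and from 7 to 3 bases upstream, and 17.8% of all promoters held the motif. Cebpb also held 5 GC boxes (GGGCGG), of which the 2 farthest upstream overlap, and a GC box is a motif that 32.7% of all promoters held. Neither stretch held the C/EBP core TTGCNNAA, CCAAT, the full cAMP response element TGACGTCA, CACGTG, the STAT motif TTCNNNGAA, the PPAR element called DR1 or AGAACA on either strand, which says only that these letters are not in these windows. The promoters are in another genome build than the sites, so they are not placed on the site coordinates, and sequence of the sites themselves was not used here.

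In the GRCm38 gene table the coding genes next to Cebpa were Pepd, Cebpg and Gm45095 on the side of lower coordinates, and Slc7a10, Lrp3 and Wdr88 on the other. Cebpg encodes a further family member that pairs with the others, and Slc7a10 an amino acid transporter known from white fat cells. Cebpb lay between Snai1, Ube2v1 and Tmem189 on the lower side, and Ptpn1, Ripor3 and Pard6b on the upper. Ptpn1 encodes a phosphatase that dampens insulin signalling. Cebpd lay between Mcm4, Prkdc and Mzt2 on the lower side, and Spidr, which overlaps it, Pkp2 and Yars2 on the upper. No hypersensitive site is assigned to any of these genes here, so the windows are described by position only.

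The tag count of a site is the authors' normalized value, in which 1 tag is worth 0.857 in BAT, 0.985 in iWAT and 0.595 in eWAT. Levels are therefore compared within a list, as a percentile (the percent of the list's sites with fewer tags, with ties split evenly), or as centred log2 ratios between lists. The median site of the whole list had 12 normalized tags in BAT, 13.8 in iWAT and 9.52 in eWAT. Intervals are exact at 95%, reflect the counting of tags or sites alone, and take no account of the dependence between neighbouring sites.

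The windows of Cebpa and Cebpb were crowded with open sites in every depot, and that of Cebpd was less so. The Cebpa window held 19 BAT, 19 iWAT and 23 eWAT sites. The median was 4, 6 and 6 sites over 9072 windows of the same width laid from the chromosome starts. Windows without a site in any list are left out, here and for the other loci. Among the windows kept, that of Cebpa stood at percentile 98.8 in BAT, 96.3 in iWAT and 99.5 in eWAT. The Cebpb window held 14 BAT, 18 iWAT and 16 eWAT sites, against medians of 3, 5 and 5 over 10953 windows, and stood at percentiles 97.3, 98.3 and 97.6. The Cebpd window held 8 sites in each depot, and its percentiles were 82.0 in BAT, 71.1 in iWAT and 72.2 in eWAT. These windows were set around known genes, and the percentiles describe where they fall and test nothing.

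**Figure D1:**
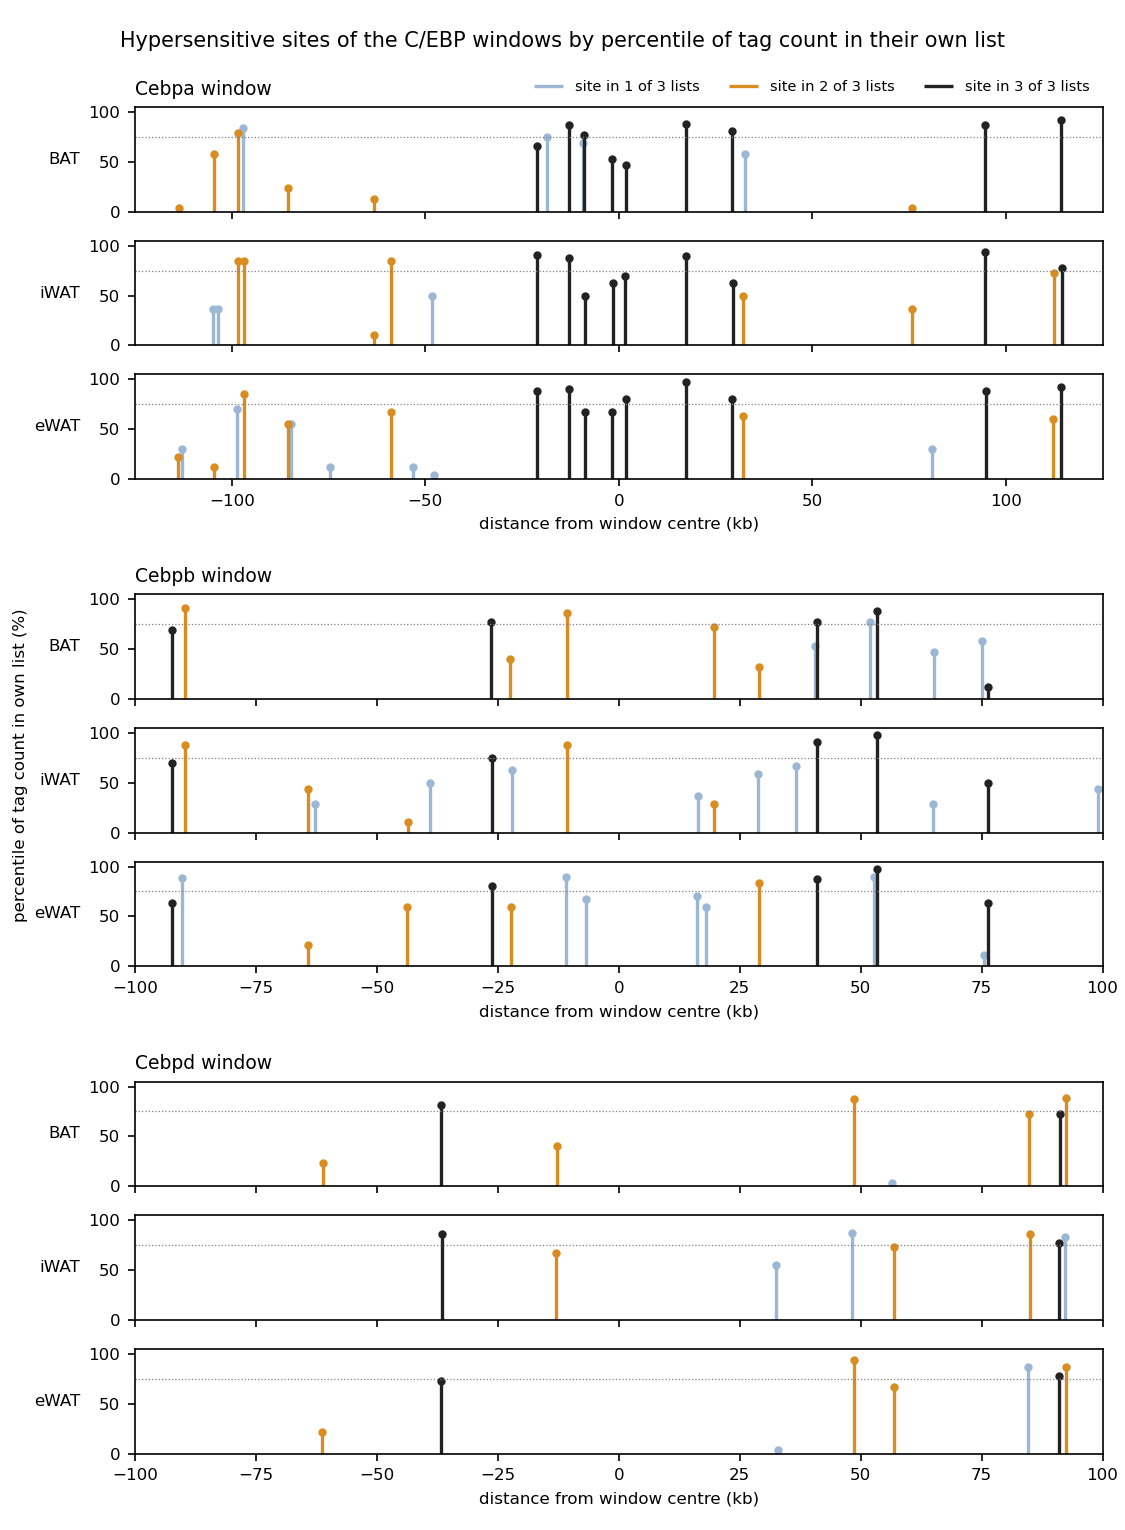
Hypersensitive sites of the 3 windows in BAT, iWAT and eWAT, drawn at their distance from the window centre in kb (x axis), with the percentile of their tag count in their own list (y axis, %). Colour gives the number of lists that hold the region, and the dotted line marks the 75th percentile. The Cebpa window shows a run of black stems, common to all depots, right of an empty 26.4 kb. That gap was chosen because it ends at the first common region, so no black stem can lie left of it.

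By tag count, sites near the C/EBP genes sat more often among the strong sites than sites of the whole lists did. Of the BAT members, 18 of 41 were in the top 25% of their list (43.9%, interval 28.5 to 60.3%), against 26.2% of all BAT sites. In iWAT it was 18 of 45 (40.0%, 25.7 to 55.7%), against 26.1% of all, and in eWAT 19 of 47 (40.4%, 26.4 to 55.7%), against 25.6%. The background exceeds 25% because many sites tie at the limit. The lower bound of the interval was above the background in BAT and eWAT, and below it in iWAT. In the top 10% of their lists were 2 BAT (4.88%), 4 iWAT (8.89%) and 4 eWAT members (8.51%). By definition that part holds about 10% of a list, and none of these shares was above it. The median member stood at percentile 72.4 in BAT, 66.7 in iWAT and 67.1 in eWAT.

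The other measure of strength, the fold of a site over its own surroundings, gave another order. By that fold, 8 of 41 BAT members were in the top 25% of their list, against 25.0% of all BAT sites, 9 of 45 iWAT members, against 24.9%, and 6 of 47 eWAT members, against 25.0%. A site stood lower by fold than by tag count in 29 of 41 BAT members, against 47.8% of all BAT sites, in 34 of 45 iWAT members, against 48.9%, and in 33 of 47 eWAT members, against 48.7%. The gap was widest in the Cebpa window, where the median percentile by fold was 19.7 in BAT, 19.2 in iWAT and 34.2 in eWAT, while the median by tag count was 69.3, 69.8 and 67.1. In the Cebpb window the median percentile by fold was 42.6, 31.6 and 36.1 in the same order of depots, and in the Cebpd window 45.9, 65.1 and 55.3. By number of sites, the windows with the most were thus those with the lower folds. The Cebpa window is wider, and per 100 kb the order did not hold in iWAT. There Cebpb held 9 sites per 100 kb and Cebpa 7.6, yet Cebpb had the higher median percentile by fold. The part that crowding plays in this was not tested.

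**Figure D2:**
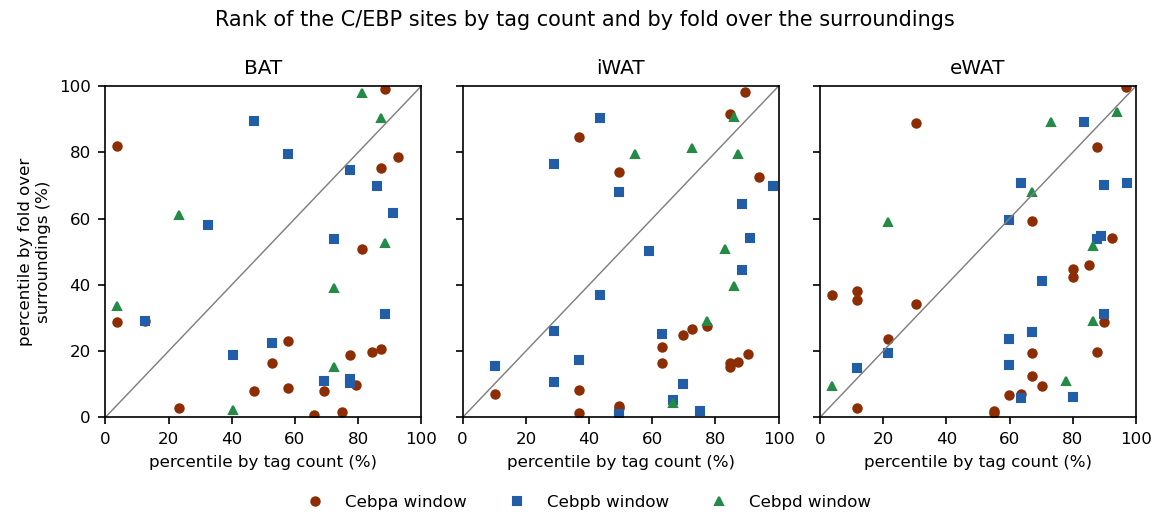
Percentile of each C/EBP site in its own list by tag count (x axis, %) and by fold over its surroundings (y axis, %), with BAT, iWAT and eWAT in separate panels and 1 point per site. The line marks equal percentiles, and 29 of 41 BAT, 34 of 45 iWAT and 33 of 47 eWAT sites lie below it.

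Across the windows, 16 of 78 regions were listed in all 3 depots (20.5%, interval 12.2 to 31.2%), against 25.2% of all regions. A further 23 were in exactly 2 lists, 8 of them in BAT and iWAT, 8 in BAT and eWAT, and 7 in iWAT and eWAT. The remaining 39, or 50.0%, were in a single list, against 51.5% of all regions. The interval of the common share spans the background. Restricted sites numbered 9 of 41 in BAT, against 23.5% of all BAT sites, 14 of 45 in iWAT, against 32.1%, and 16 of 47 in eWAT, against 32.0%. Sites in a common region were 39.0% of the BAT members, against 51.8% of all BAT sites, 35.6% of the iWAT members, against 39.6%, and 34.0% of the eWAT members, against 41.0%.

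Most sites listed in a single depot were near a site of another list. Of the 39, 16 lay within 200 bp of another list's site (41.0%, interval 25.6 to 57.9%), against 25.8% of the 51131 single-depot sites of the series. Within 500 bp lay 26 (66.7%, 49.8 to 80.9%), against 32.1%, and within 1 kb 29 (74.4%, 57.9 to 87.0%), against 37.8%, while 10 lay farther off. The windows also hold more sites per kb than most of the genome, and the part of that in these shares was not tested. Joining sites closer than 500 bp into stretches, a distance chosen after the data had been seen, left 57 stretches, of which 28 held sites of all 3 depots (49.1%, interval 35.6 to 62.7%), against 36.7% of all stretches. Stretches of a single depot then numbered 13 of 57, or 22.8%, against 40.5% of all stretches. Joining at 200 bp gave 26 of 65 stretches in all depots (40.0%, 28.0 to 52.9%), against 34.6% in the series, and joining at 1000 bp, also chosen later, 26 of 51 (51.0%, 36.6 to 65.2%), against 38.4%. The common share of the C/EBP windows was thus below that of the series when sites had to touch, and above it at each joining distance. At every distance tried, its interval spans the share of the series.

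**Figure D3:**
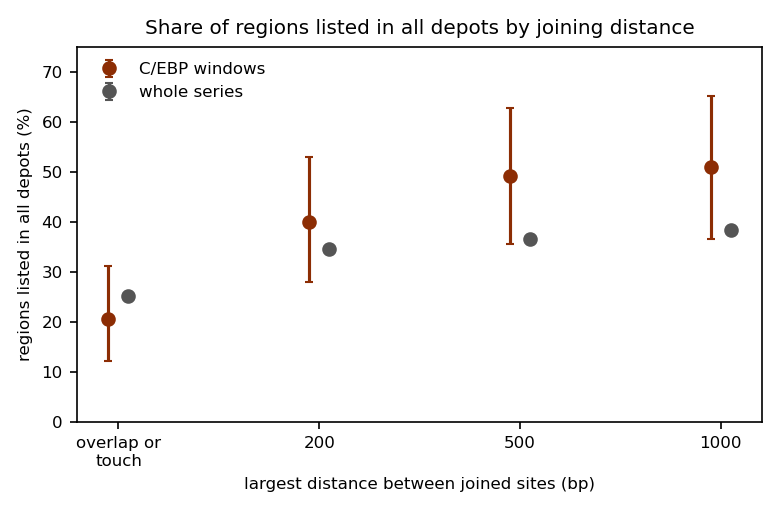
Percent of regions or stretches listed in all 3 depots (y axis, from 0) against the distance below which sites are joined (x axis, bp), for the C/EBP windows with exact 95% intervals and for the whole series. The C/EBP share is 20.5% where sites must touch and 49.1% at 500 bp, and the series has 25.2% and 36.7%.

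The Cebpb window, that of an early factor, had 5 of 31 regions in all 3 lists, 7 in exactly 2 and 19 in a single list. The C/EBP region with the highest tag count in iWAT lay here, at 167603209-167603472, with 24.8 normalized tags in BAT, 50.2 in iWAT and 27.4 in eWAT. It ranked at percentile 88.4 of the BAT list, 98.2 of the iWAT list and 97.1 of the eWAT list. By tag count it was thus high in each depot and lowest in BAT. By fold over the surroundings it stood lower, at percentile 31.2 in BAT, 70.0 in iWAT and 70.7 in eWAT. After centring on all 24988 common regions with 1 site per list, its BAT to iWAT ratio was -0.69 on the log2 scale (interval -1.40 to -0.01), and 8.70% of all common regions had a lower one. Centred on the stretches joined at 500 bp instead, the same tags gave -0.68 (-1.39 to 0.0026), which spans 0. Its BAT to eWAT ratio was -0.42 (-1.14 to 0.28), and its iWAT to eWAT ratio was 0.27 (-0.33 to 0.88), both intervals spanning 0. An eWAT site of 19.0 tags (percentile 89.8) stood at 167602657-167602877, 359 bp from the iWAT site, and a BAT site of 18.8 tags (percentile 77.4) at 167601906-167602128, 529 bp from the eWAT site. Summed over the joined stretch 167602657-167603472, BAT had 24.8 tags from 1 site, iWAT 50.2 from 1 site and eWAT 46.4 from 2 sites. The eWAT sum includes a second listed site, at a position where the BAT and iWAT tags are unknown because neither list holds a site there, so no ratio is drawn from these sums.

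The next common regions of the Cebpb window varied in rank by tag count. Region 167590863-167591123 had 18.8 tags in BAT, 31.5 in iWAT and 17.8 in eWAT, and 167523553-167523844 had 18.8, 20.7 and 14.9. Both were in the top 25% of all 3 lists by tag count, as was the highest region. Region 167457557-167457808 had 16.3 tags in BAT, 18.7 in iWAT and 11.3 in eWAT, which is 19 whole tags in each library, and 167626248-167626483 had 8.57, 13.8 and 11.3. The last stood at percentile 12.5 in BAT, 49.4 in iWAT and 63.7 in eWAT, the widest span in rank among the 16 common regions, on 10, 14 and 19 whole tags. Its centred ratios had intervals that span 0 in each pair of depots. By fold, 167590863-167591123 stood at percentiles 74.6 in BAT, 54.1 in iWAT and 53.8 in eWAT. In the same order, 167523553-167523844 stood at 10.4, 1.99 and 6.19, and 167457557-167457808 at 11.0, 10.1 and 5.86. The values of 167626248-167626483 were 29.2, 68.2 and 70.7.

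Some Cebpb sites that were strong in each depot did not touch. In the first such place, BAT had 27.4 tags and iWAT 28.6 at 167460148-167460409, and eWAT had 18.4 at 167459664-167459884, 264 bp away. In the second, BAT had 23.1 tags and iWAT 28.6 at 167539240-167539512, and eWAT had 19.0 at 167538951-167539171, 69 bp away. Each of these 6 sites was in the top 25% of its list, and the eWAT sites were counted as restricted at the first step. The strongest iWAT site without a partner lay at 167586615-167586837, with 17.7 tags (percentile 66.7) and 3527 bp to the nearest site of another list. Joining at 500 bp raised the common count of this window to 9 of 22 stretches.

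The Cebpd window, that of the other early factor, had 2 of 14 regions in all 3 lists, 6 in exactly 2 and 6 in a single list. Region 15863213-15863529 had 20.6 tags in BAT, 26.6 in iWAT and 13.1 in eWAT, at percentiles 81.4, 86.0 and 73.1. It stood far above its surroundings, by 25.1-fold in BAT, 19.2-fold in iWAT and 12.7-fold in eWAT. Region 15990863-15991240 had 17.1 tags in BAT, 21.7 in iWAT and 14.3 in eWAT, and its 3 centred ratios were all within 0.02 of 0 on the log2 scale. For both regions the counting intervals of all 3 centred ratios span 0.

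In the Cebpd window all 6 restricted sites lay within 178 bp of a site of another depot, so that no stretch of a single depot was left at 200 or 500 bp. At 15948154-15948376 iWAT had 27.6 tags (percentile 87.2), and 113 bp on, at 15948489-15948749, BAT had 24.0 (percentile 87.2) and eWAT 22.6 (percentile 94.1). At 15992060-15992282 iWAT had 24.6 tags, and 101 bp on, at 15992383-15992643, BAT had 24.8 and eWAT 17.2, all 3 in the top 25% of their lists. At 15984431-15984651 eWAT had 17.2 tags, and 60 bp on, at 15984711-15985029, BAT had 17.1 and iWAT 26.6. In these 3 places the depots differed in the position of the listed site, so the tags are not counts of 1 shared site. The stretch 15956336-15956983 held a weak BAT site beside stronger ones, with 7.71 tags in BAT, 19.7 in iWAT and 11.9 in eWAT. The BAT value rests on 9 whole tags, at percentile 3.75 of its list, and the BAT site lies 178 bp from the iWAT site, so the values belong to different positions.

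The Cebpa window, that of the factor of mature fat cells, had 9 of 33 regions in all 3 lists, 10 in exactly 2 and 14 in a single list, and they were unevenly placed. The 17 regions between 35811017 and 35877315 held none of all 3 lists, with 7 in exactly 2 and 10 in a single list. After a gap of 26.4 kb without a site in any list, 11 regions followed between 35903726 and 35957647, over 53.9 kb, and 7 of them were in all 3 lists. Of the 16 regions from 35903726 to the end of the window, 9 were in all 3 lists. The median percentile of the sites before the gap was 40.6 in BAT, 49.4 in iWAT and 30.4 in eWAT, and after it 75.04, 71.2 and 80.1. Joined at 500 bp, 3 of 12 stretches before the gap and 10 of 14 after it held all depots. The window was split at its first common region, so the absence of common regions before the split is fixed by that choice. The split also places every site of a common region after it. Over the series, such sites had median percentiles of 66.0 in BAT, 72.6 in iWAT and 70.3 in eWAT. The contrasts in percentile and in stretches are thus shaped by the split as well, and its part in them was not tested. The widest gap of the window is another one, of 42.9 kb from 35957647 to 36000569. The contrast was seen in these sites and was not a comparison planned from the labels, so it is a description.

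The Cebpa region furthest above its surroundings lay at 35942331-35942593, with 24.8 tags in BAT, 29.6 in iWAT and 26.8 in eWAT, at percentiles 88.4, 89.3 and 96.9. Its fold over the surroundings was 30.3 in BAT, 29.4 in iWAT and 29.4 in eWAT, at percentiles 99.1, 98.3 and 99.8 of the lists by fold. It thus stood near the top of each list by that measure, unlike most sites of its window. Its centred log2 ratios were 0.07 for BAT to iWAT (-0.71 to 0.86), -0.39 for BAT to eWAT (-1.11 to 0.32) and -0.46 for iWAT to eWAT (-1.18 to 0.24).

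Region 35912020-35912346 had 24.0 tags in BAT, 27.6 in iWAT and 19.0 in eWAT, and 36019620-36019918 had 24.0, 35.5 and 17.8. Region 36039262-36039604 had 29.1 tags in BAT, 21.7 in iWAT and 20.8 in eWAT, the highest BAT value of any member. All 3 were in the top 25% of every list, and their centred ratios lay between -0.54 and 0.75 with intervals that span 0. Region 35903726-35904100, the first after the gap, had 15.4 tags in BAT, 30.5 in iWAT and 17.8 in eWAT, and its percentiles were 66.0, 90.2 and 87.8. It was relatively lowest in BAT, with centred ratios of -0.66 to iWAT (-1.59 to 0.22) and -0.49 to eWAT (-1.42 to 0.40). Its fold over the surroundings was low in each depot, with 4.18 in BAT, 6.50 in iWAT and 5.40 in eWAT, close in BAT to the minimum of 4 that every listed site meets.

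The run of common Cebpa regions also held 3 sites of BAT alone, of 9 such sites in the 3 windows. Regions of BAT alone were 11.5% of the 78 regions, against 11.4% of all regions. The first, at 35906231-35906453, had 18.0 tags (percentile 75.04) and a fold of 4.30, at percentile 1.59 of the BAT list by fold. The nearest site of another list, from iWAT, was 2131 bp away. Of the 9 restricted sites in the top 25% of their lists, it was the only one beyond 1 kb of another list's site. The share of such sites over the series was not computed, so this count is only a description. The second, at 35915549-35915771, had 16.3 tags and lay 303 bp from the nearest site of another list, in the common region 35916027-35916379, which had 18.8 tags in BAT, 13.8 in iWAT and 11.9 in eWAT. Summed over the joined stretch 35915549-35916379, BAT had 35.1 tags from 2 sites, iWAT 13.8 and eWAT 11.9 from 1 site each. BAT thus listed an additional site there, and the iWAT and eWAT tags at its position are unknown because their lists hold none, so no ratio is drawn from the sums. The common region itself had centred ratios of 0.77 for BAT to iWAT (-0.26 to 1.85) and 0.38 for BAT to eWAT (-0.55 to 1.34), both intervals spanning 0. The third, at 35957425-35957647, had 13.7 tags, 314 bp from a region with 13.8 in iWAT and 11.3 in eWAT.

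Before the gap, some Cebpa sites of different depots lay close together without touching. At 35827728-35827950 BAT had 22.3 tags (percentile 84.5), and 141 bp on, at 35828091-35828357, iWAT had 25.6 (percentile 84.5) and eWAT 16.7 (percentile 85.1). At 35826547-35826776 BAT had 19.7 tags and iWAT 25.6, and eWAT had 12.5 (percentile 70.3) at 35826316-35826536, 11 bp away. The strongest Cebpa site of iWAT alone, at 35876572-35876794, was weaker, with 13.8 tags (percentile 49.4), and lay 301 bp from a site of another list. At 35865997-35866317 iWAT had 25.6 tags and eWAT 11.9, and BAT listed none. It stood at percentile 84.5 in iWAT and 67.1 in eWAT.

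None of the 16 common regions was past 2-fold in any pair after centring. Over all common regions, 2.8% were past 2-fold higher in BAT than in iWAT and 2.77% lower, 2.73% higher in BAT than in eWAT and 2.44% lower, and 1.88% higher in iWAT than in eWAT and 1.94% lower. Against background shares this small, a count of 0 of 16 shows nothing particular to these regions. Their ratios ran from -0.69 to 0.77 for BAT to iWAT, from -0.68 to 0.38 for BAT to eWAT and from -0.54 to 0.42 for iWAT to eWAT, with medians of -0.03, 0.02 and -0.09. By locus, the median BAT to iWAT ratio was 0.07 for Cebpa, -0.36 for Cebpb and -0.03 for Cebpd, and the median iWAT to eWAT ratio was -0.28, 0.12 and 0.21. The Cebpb median for BAT to iWAT was 0.026 over the 9 stretches joined at 500 bp, so no direction is drawn from it. Of the 28 joined stretches in all 3 lists, 1 was past 2-fold higher and 1 lower in BAT than in iWAT. Over the series it was 1066 and 1235 of 31033. For BAT to eWAT it was 1 and 1, against 1051 and 1120, and for iWAT to eWAT 0 and 0, against 854 and 846. Stretches can sum unequal numbers of sites or sites at different positions, so no difference is drawn from these counts. Centring shifts every region of a pair alike, and without it the Cebpa medians for BAT to iWAT and iWAT to eWAT were -0.26 and 0.33.

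**Figure D4:**
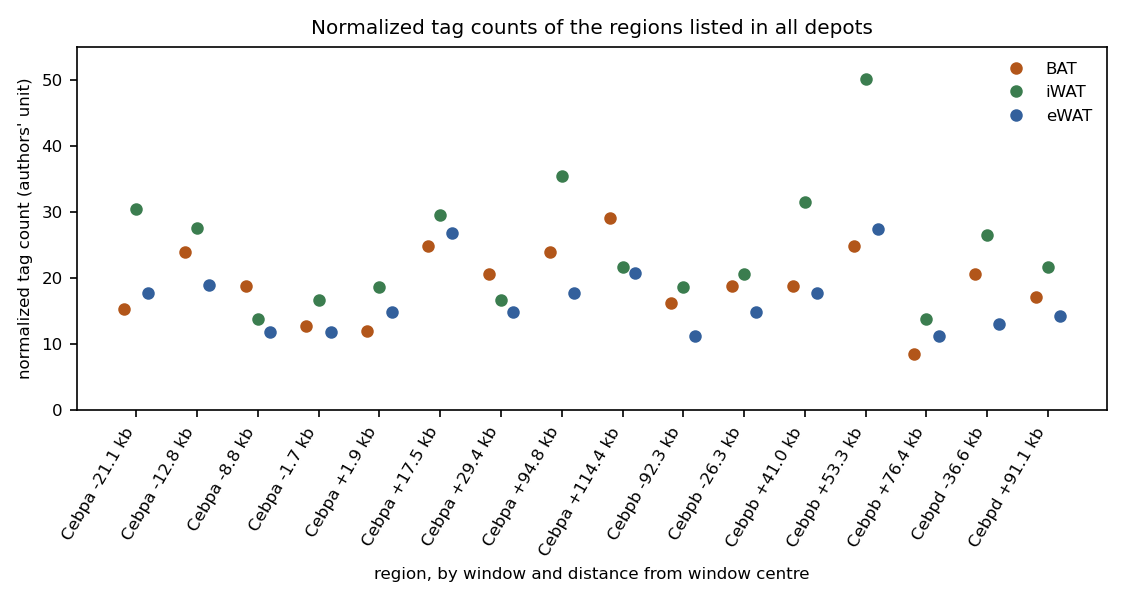
Normalized tag count (y axis, from 0) of each of the 16 regions listed in all 3 depots, with a point each for BAT, iWAT and eWAT. Regions are named by their distance from the window centre (x axis, kb). iWAT is highest at the Cebpb region 53.3 kb above the centre, with 50.2 tags, and BAT at the Cebpa region 114.4 kb above it, with 29.1.

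**Figure D5:**
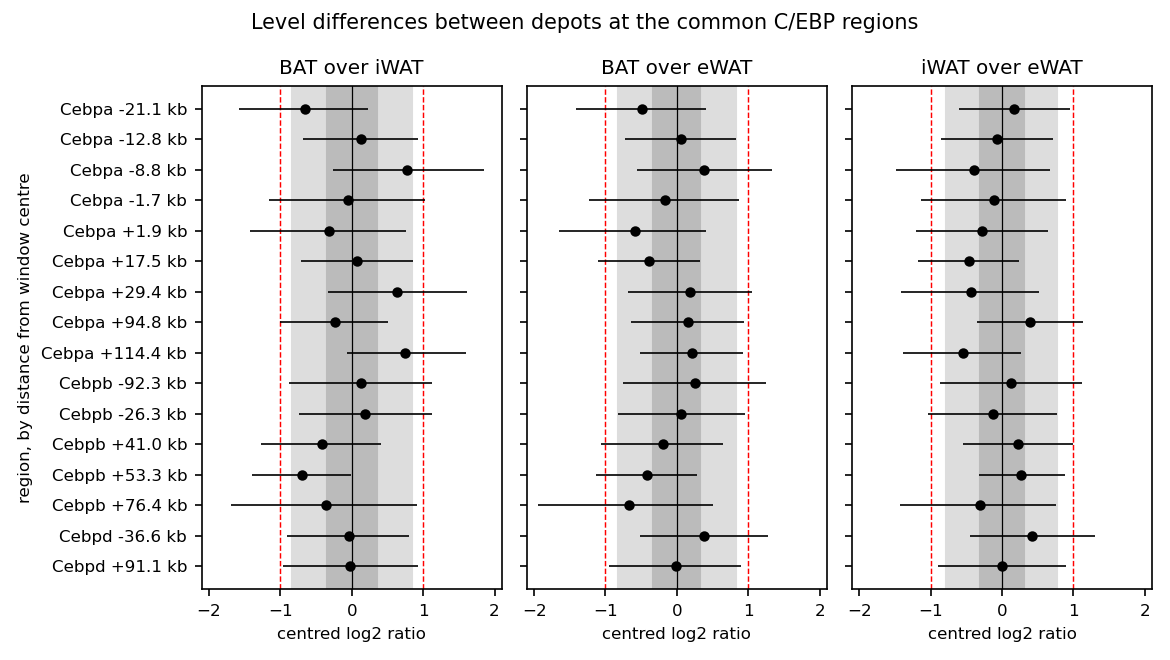
Centred log2 ratios of the 16 common regions for BAT over iWAT, BAT over eWAT and iWAT over eWAT, with exact 95% counting intervals, 1 row per region, named by its distance from the window centre. Grey bands hold the middle 50% and 90% of all common regions, and dashed lines mark 2-fold. Every point lies between the lines at 2-fold, and the BAT to iWAT interval of 1 Cebpb region, -1.40 to -0.01, does not span 0, though it does when centred on the joined stretches (-1.39 to 0.0026).

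In rank by tag count, 7 of the 16 common regions were in the top 25% of all 3 lists, or 43.8%, against 27.1% of all common regions. They were 4 of 9 in Cebpa, 3 of 5 in Cebpb and 0 of 2 in Cebpd. In the top 50% of all 3 lists by tag count were 13 of 16, against 52.1% of all. No interval was computed for these shares. By fold over the surroundings, the same 7 regions varied widely. Lowest was 167523553-167523844, at percentiles 10.4 in BAT, 1.99 in iWAT and 6.19 in eWAT. Highest was 35942331-35942593, at percentiles 99.1, 98.3 and 99.8. The tag ranks thus do not carry over to fold. The midpoints of the sites in a common region spread over a median of 100 bp, against 73 bp in the series, with 130 bp over the 9 regions of Cebpa and 38 bp over the 5 of Cebpb.

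At the window edges, the Cebpa sites just inside had 7.14 tags in eWAT at the start and 21.7 in iWAT at the end, and those just outside had 12.8 in iWAT and 7.73 in eWAT. For Cebpb they were 18.7 and 12.8 in iWAT just inside, and 11.3 in eWAT and 17.1 in BAT just outside. For Cebpd they were 7.14 in eWAT and 24.8 in BAT just inside, and 25.7 and 12 in BAT just outside. The nearest site outside lay 75.4 kb before and 4.70 kb beyond the Cebpa window, 28.8 kb before and 9.33 kb beyond the Cebpb window, and 75.6 kb before and 11.99 kb beyond the Cebpd window.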

How the data were processed

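DNase-seq sites of 1 library per depot were taken from the lists the authors deposited. STAR, HOMER and mm9 are named in the submitters' processing notes, without versions or roles. Per the file headers, each deposited site has a normalized tag count (a signal), a peak score, a focus ratio (a fraction between 0 and 1), a fold (ratio) over its surroundings and a p-value. The score and the fold were used in alternatives and rankings, the p-value and the focus ratio in no comparison. Whole tags came from dividing by the value of 1 tag (at least 99.98% whole in BAT, iWAT and eWAT, tolerance 0.05, or 0.005 below 10). Tags in listed sites totalled 874254 in BAT, 1118789 in iWAT and 1184342 in eWAT.

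Sites overlapping by 1 bp or touching were merged. Strong means the top 25% of a list by tags, and a level is past 2-fold after subtracting the median log2 ratio of all common regions (-0.32, 0.28 and 0.60 for BAT to iWAT, BAT to eWAT and iWAT to eWAT). Intervals at 95% are exact binomial (Clopper-Pearson) for shares and for ratios of whole tags. The text names the 5 common regions per locus with the highest mean percentile, the highest restricted region per depot, and further regions chosen after their values were seen. Windows and lists were chosen with earlier results of these data known. The merging was tested on 20000 simulated regions, of which 100% were recovered. In them the sites of a region always overlapped and regions lay well apart. Close sites that do not touch were not simulated, so the figure checks the code and not the classes of such sites. Python 3.11.15, numpy 2.4.6, pandas 2.3.3, scipy 1.17.1 and matplotlib 3.10.9 were used.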

Additional observations from a re-analysis of the deposited data

How the results depend on the processing

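For 45 results, 180 alternative values stayed close to the value reported and 45 moved, where a share or ratio moved if it left the counting interval and a count if it changed by more than 1.5 times. For single common regions, 267 alternative log2 ratios moved by less than their intervals reach, and so did 48 differences in percentile once scaled to the spread of the ratios. These cover only regions whose bounds the setting left unchanged. Joining at 500 bp thus gave 39 ratios and asking for 50% overlap 36, against 48 in each other setting. With unchanged bounds, the joining and overlap settings reuse the same tags and shift only the centre. The centring settings subtract the same amount from every region of a pair. Agreement in these settings follows largely from how they are built, and is no check of the ratios. Only the deposited score brought in other values. The Cebpb region 167603209-167603472 was not compared at 500 bp, where joining changed its bounds. Centred on the stretches joined at 500 bp, the BAT to iWAT interval of the Cebpb region 167603209-167603472 spans 0 (-1.39 to 0.0026). Keeping sites at least 6-fold above their surroundings left 11 BAT and 13 eWAT sites in Cebpa and 9 eWAT sites in Cebpb. Windows 25 kb narrower on each side left 5 BAT, 5 iWAT and 5 eWAT sites in Cebpd, and 3 common regions in Cebpb and 1 in Cebpd. Asking for 50% overlap gave Cebpd 1 common and 11 single-depot regions. Joining at 200 bp gave Cebpb 8 common and 12 single, and Cebpd 6 common, 3 in exactly 2 depots and 0 single. Joining at 500 bp, chosen after seeing the data, gave Cebpa 6 single, Cebpb 9 common and 7 single, Cebpd 6 common, 3 in exactly 2 depots and 0 single, and a median BAT to iWAT ratio of 0.026 in Cebpb, of the opposite sign to the value reported, with sums over unequal numbers of listed sites. Joining at 1000 bp, also chosen later, gave Cebpa 4 single, Cebpb 9 common and 6 single, and Cebpd 5 common, 3 in exactly 2 depots and 0 single.

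Ranked by fold, strong sites were 21.1% in BAT, 15.8% in iWAT and 13.0% in eWAT for Cebpa, and 14.3% in BAT and 6.25% in eWAT for Cebpb. The top 10% held 5.26%, 10.5% and 8.70% of the BAT, iWAT and eWAT sites of Cebpa, 7.14% of the BAT and 6.25% of the eWAT sites of Cebpb, and 0%, 0% and 12.5% of the BAT, iWAT and eWAT sites of Cebpd. Without centring, the median log2 ratios of Cebpa were -0.26 for BAT to iWAT, 0.34 for BAT to eWAT and 0.33 for iWAT to eWAT, and that of Cebpb was 0.73 for iWAT to eWAT. Centring moves all regions of a pair by the same amount, so these sign changes follow from the setting. The cause of these moves was not tested beyond what each setting does by construction. Lists cut to equal length (48308 sites) or to a common minimum score of 8.87 normalized tags moved no value. No paired analysis was possible because each depot has 1 library. Depth limits the levels: members hold 9 to 51 whole tags, and most intervals of single ratios span more than 2-fold.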
